A study of Mus musculus with 9 samples.

Results

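The genes described here are 33 genes of fatty acid uptake, storage and beta-oxidation, taken by a list of symbols that was drawn up with earlier results of these data known, out of 38293 genes in a count table of mouse heart RNA. All 33 were in the table, and all 33 were among the 14124 genes that passed edgeR's filter on low counts. RNA was measured in the left ventricle of 9 male C57BL/6 mice aged 8 weeks, in 3 groups of 3. The first group had a sham operation (mice 1, 2 and 3), and the time of their tissue collection is not given in the labels. The second (mice 4, 5 and 6) was sampled in the infarct region 1 day after ischemia-reperfusion (I/R), in which the left anterior descending coronary artery was tied for 1 hour and then released. The third was sampled in the infarct region 14 days after the same operation. Its 3 count columns carry the same name, and the letters A, B and C stand for them here without any order. No genetic change or drug is named for any group, and nothing beyond the mouse numbers says how the mice were housed, operated on or processed together.

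Long-chain fatty acids are the main fuel of the adult heart. Lipoprotein lipase on the capillary wall frees them from circulating lipoproteins, membrane and binding proteins carry them into the cardiomyocyte, and acyl-CoA synthetases trap them as acyl-CoA. Acyl-CoA is then stored as triglyceride in lipid droplets or passed through the carnitine shuttle into mitochondria, where a repeating spiral of dehydrogenation, hydration, a further dehydrogenation and thiolysis releases acetyl-CoA and hands electrons to the respiratory chain. Malonyl-CoA, made by acetyl-CoA carboxylase and removed by malonyl-CoA decarboxylase, inhibits the first step of the shuttle. The nuclear receptors PPAR alpha and ERR alpha are known regulators of many of these genes in heart.

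Total counts ran from 20215781 to 36816818 per library, and from 5706225 to 14501223 without mitochondrially encoded and ribosomal RNA genes. The tissue label was checked on 20 cardiomyocyte structural genes, whose summed level was 67510 to 74756 CPM in sham (counts per 1000000 of the library as scaled by edgeR's trimmed mean of M values, TMM), 40052 to 57600 CPM at 1 day and 53680 to 68732 CPM at 14 days. On the first principal component of log2 CPM, which held 64.4% of the variance, mice 4 and 5 lay at 78.0 and 78.7 and mouse 6 at 37.2. Sham mice lay between -40.9 and -35.8, library A at -37.2, B at -25.0 and C at -16.9. Nothing in the labels says whether mouse 6 differed in infarct size or sampling.

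At 1 day after I/R most fatty acid genes were lower than in sham. Of the 33 genes 29 fell, none rose and 4 did not pass the test (edgeR quasi-likelihood test, Benjamini-Hochberg adjusted p under 0.05 over all genes tested). Over all genes tested, 24.8% fell and 29.4% rose. The median log2 fold of the 33 genes was -1.18 (range -2.45 to -0.24), beside 0.04 over all genes. In 30 of the 33 genes every 1-day library lay below every sham library, as it did in 29.7% of all genes tested, and the 3 that overlapped were Cpt1a, Pnpla2 and Lipe. The summed level of the 33 genes was 7558 to 7578 CPM in the sham libraries, 2705 to 4739 CPM at 1 day and 4954 to 6970 CPM at 14 days. In bulk tissue, fewer cardiomyocytes and less RNA per cardiomyocyte cannot be told apart.

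The 1-day libraries were not alike. As medians over the 33 genes, of log2(CPM + 0.5) minus the sham mean, mouse 4 lay at -1.26, mouse 5 at -1.49 and mouse 6 at -0.71. Mouse 6 was the highest of the 1-day libraries in 32 of the 33 genes (all but Acot2), and mouse 5 the lowest in 30 (all but Cd36, Lpl and Hadhb). The cardiomyocyte structural genes stood in the same order, at -0.65, -0.80 and -0.28. The 7 neutrophil genes tested stood in the opposite order, at 3.09, 3.38 and 1.89. Without mouse 6 all 33 genes were called lower at 1 day, beside 3873 of all 14649 genes tested. Over all alternatives 25 to 33 members were called lower and none higher, also by DESeq2 and limma-voom (30 lower in each).

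**Figure D1:**
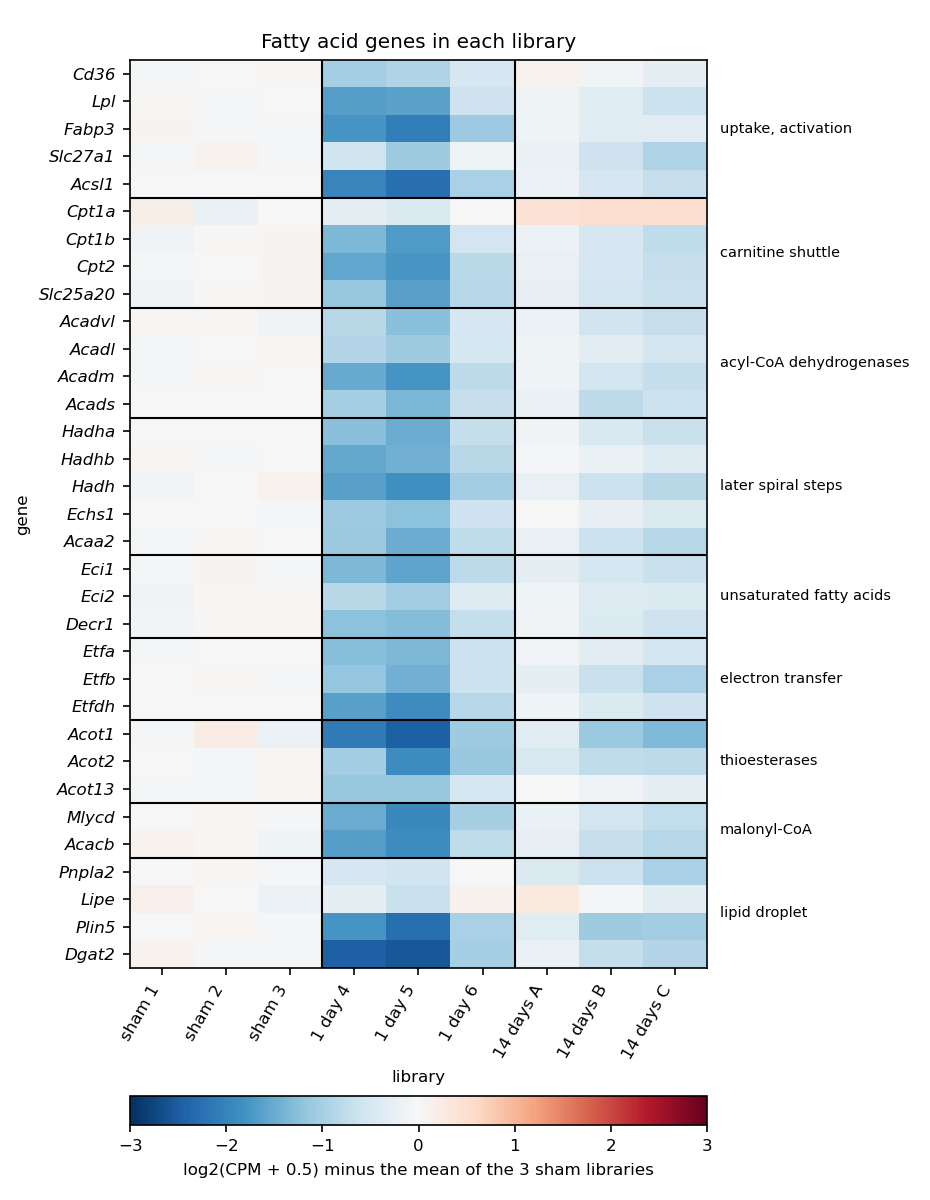
Each row is 1 of the 33 genes, grouped by role, and each column 1 library; the colour gives log2(CPM + 0.5) minus the mean of the 3 sham libraries, from -3 (blue) to 3 (red). Mice 4 and 5 are the darkest blue columns, mouse 6 is paler, and Cpt1a is the 1 row that is red in all 3 libraries at 14 days.

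Promoter windows of members are shown because PPAR alpha with its partner RXR binds a direct repeat of AGGTCA with 1 base between the copies (DR1). RefSeq windows of GRCm38.p6, from 250 bases before to 50 after an annotated start, were at hand for 27 of the 33 genes, 32 windows in all. A DR1 with at most 3 mismatches over both copies, on either strand, was found in 13 of 32 windows (40.6%), which belong to 12 genes, and in 8097 of all 32851 windows (24.6%). The exact sequence TCAAGGTCA, the extended single site to which ERR alpha binds, was found on either strand in 0 of the 32 windows and in 139 of all windows (0.423%); its last 6 bases are the unit that DR1 repeats. The 4 windows with the fewest DR1 mismatches (2) follow, in the direction of the gene, with every DR1 match of at most 3 mismatches in capitals. They are those of Cd36 (chr5:17835847-17836146, minus strand), Echs1 (chr7:140116372-140116671, minus strand), Etfa (chr9:55512194-55512493, minus strand) and Slc25a20 (chr9:108661886-108662185, plus strand). With the start base counted as 0, the matches with 2 mismatches begin at -63, -83, -77 and 6. A match is a description of letters, and no binding was measured here.
Cd36: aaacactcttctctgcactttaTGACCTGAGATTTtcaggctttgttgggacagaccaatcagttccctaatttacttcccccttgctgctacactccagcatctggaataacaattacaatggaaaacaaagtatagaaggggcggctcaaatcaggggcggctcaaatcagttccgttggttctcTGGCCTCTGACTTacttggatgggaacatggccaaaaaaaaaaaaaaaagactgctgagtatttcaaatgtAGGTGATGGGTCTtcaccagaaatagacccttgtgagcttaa
Echs1: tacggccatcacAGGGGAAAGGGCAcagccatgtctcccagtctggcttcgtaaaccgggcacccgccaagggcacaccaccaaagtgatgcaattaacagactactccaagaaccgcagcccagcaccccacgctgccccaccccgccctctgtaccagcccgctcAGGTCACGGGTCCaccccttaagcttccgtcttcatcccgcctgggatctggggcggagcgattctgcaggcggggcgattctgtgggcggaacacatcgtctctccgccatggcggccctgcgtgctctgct
Etfa: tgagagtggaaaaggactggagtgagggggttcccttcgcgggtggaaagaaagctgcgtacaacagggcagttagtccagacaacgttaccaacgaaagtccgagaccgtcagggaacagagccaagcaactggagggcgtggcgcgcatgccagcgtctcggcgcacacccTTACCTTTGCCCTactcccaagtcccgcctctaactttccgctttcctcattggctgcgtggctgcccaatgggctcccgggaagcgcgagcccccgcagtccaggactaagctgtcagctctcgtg
Slc25a20: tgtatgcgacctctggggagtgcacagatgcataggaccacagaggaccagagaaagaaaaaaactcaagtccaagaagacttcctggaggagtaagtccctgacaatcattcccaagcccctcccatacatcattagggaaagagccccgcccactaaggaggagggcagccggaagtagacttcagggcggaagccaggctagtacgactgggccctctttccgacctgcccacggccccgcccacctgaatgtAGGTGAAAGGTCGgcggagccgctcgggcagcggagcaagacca

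All 4 of these genes fell at 1 day, by log2 folds of -0.79, SE 0.17 (Cd36), -0.97, SE 0.16 (Echs1), -1.06, SE 0.18 (Etfa) and -1.18, SE 0.18 (Slc25a20). These folds lie at or above the median of the 33 genes, -1.18.

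To compare genes, levels were divided by exon length, the union of all annotated exons of a gene. This can be far longer than any single transcript. Lpl has 10478 exonic bases, but its longest transcript holds 3971 distinct 50-base stretches, where Cd36 has 3590 and 3350. The order given here, also that of Cd36 and Lpl, therefore depends on the length used, and levels per transcript length were not computed. In sham, Cd36 had the highest level per length (247 ± 7.05 CPM per kb, SD, n = 3), followed by Lpl (211 ± 4.44), Acaa2 (184 ± 4.18), Fabp3 (184 ± 10.3) and Acadl (145 ± 5.90). Acaa2 and Fabp3 did not differ beyond their spread. The lowest were Slc27a1 (6.60 ± 0.455), Cpt1a (3.93 ± 0.497), Cpt1b (2.40 ± 0.162), Lipe (2.27 ± 0.271) and Acot1 (0.905 ± 0.146), and Cpt1b and Lipe did not differ beyond their spread. The level of Cpt1b is uncertain, because 81.4% of its exonic bases also lie in exons of the read-through gene Gm44502 on the same strand, and how the authors' counting treated such reads is not given in the sources used here. Etfb shares 58.2% of its exonic bases with Gm45233 and Mir7051 on the same strand and carries the same limit. Gm44502, Gm45233 and Mir7051 have no row in the count table. Acadvl (42.9%), Fabp3 (19.6%) and Lipe (15.6%) share exonic bases with genes on the opposite strand that do have rows in it. In the longest transcript of each gene, the 50-base stretches that also occur in transcripts of another gene were counted. They made up 93% of Cpt1b, 67.3% of Etfb, 37.3% of Fabp3 and 27.7% of Acot2. The shares were 24% in Acadvl, 18.9% in Acot1, 15.8% in Eci2 and 11.0% in Slc25a20.

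**Figure D2:**
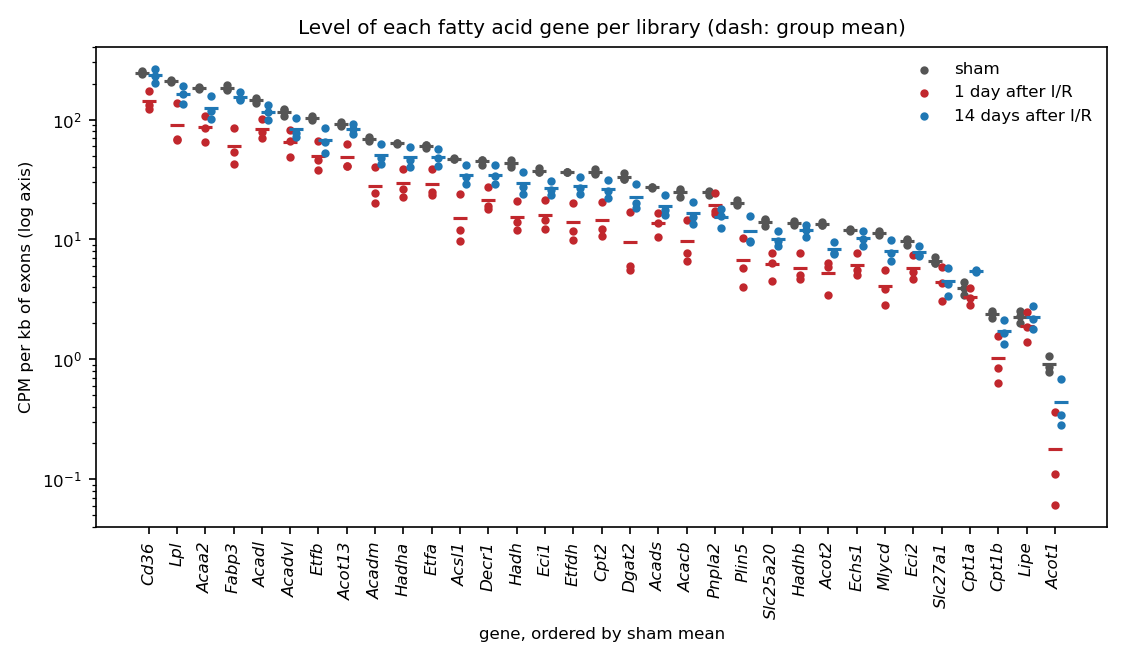
Points give CPM per kb of exons (log axis) of each gene in each of the 9 libraries, ordered from the highest to the lowest sham mean, and dashes give group means. Levels run from Cd36 at 247 to Acot1 at 0.905 CPM per kb in sham, and red points (1 day) lie below grey points (sham) for all genes except Cpt1a, Pnpla2 and Lipe, where they overlap.

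In the values that follow, libraries are in the order sham mice 1, 2 and 3, then mice 4, 5 and 6 at 1 day, then A, B and C at 14 days, and folds are log2 folds of 1 day against sham unless stated.

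Of 5 genes of uptake and activation, 4 fell at 1 day. Acsl1 (ENSMUSG00000018796, chromosome 8, 46471037 to 46536051), the main long-chain acyl-CoA synthetase of heart, had 489, 493 and 498 CPM in sham, 125, 102 and 251 CPM at 1 day and 439.8, 348 and 306 CPM at 14 days. All 1-day libraries were below sham and below the 14-day libraries (log2 fold -1.63 with SE 0.29, adjusted p = 0.00101 by edgeR). Fabp3, the heart-type fatty acid binding protein, had 151 ± 8.44 CPM in sham, 49.9 ± 18.2 CPM at 1 day and 127 ± 10.01 CPM at 14 days (mean ± SD, n = 3 each, log2 fold -1.60 with SE 0.21, adjusted p = 1.62e-04 by edgeR). Lpl, the lipase that frees fatty acids at the capillary wall, had 2209 ± 46.5 CPM in sham, 951 ± 415 CPM at 1 day and 1711 ± 305 CPM at 14 days (mean ± SD, n = 3 each, log2 fold -1.22 with SE 0.27, adjusted p = 0.00290 by edgeR). Cd36, a membrane receptor for long-chain fatty acids, fell less, from 887 ± 25.3 CPM in sham to 514 ± 97.4 CPM at 1 day (mean ± SD, n = 3 each, log2 fold -0.79 with SE 0.17, adjusted p = 0.00267 by edgeR). That call ended when libraries were scaled by total count only or to the cardiomyocyte structural genes. Slc27a1, a fatty acid transport protein with acyl-CoA synthetase activity, had 36.8, 41.6 and 37.3 CPM in sham, 25.1, 18.03 and 34.3 CPM at 1 day and 33.5, 24.8 and 19.9 CPM at 14 days. Its 1-day libraries lay below sham without passing the test (log2 fold -0.58 with SE 0.23, adjusted p = 0.0550 by edgeR), and its fold was 0.01 after scaling to cardiomyocyte genes. It was called lower with DESeq2's size factors (edgeR adjusted p = 0.0485), by DESeq2 (adjusted p = 0.0235), by limma-voom (adjusted p = 0.0408), with a filter of 1 CPM (edgeR adjusted p = 0.0496), in a fit of sham and 1 day alone (edgeR adjusted p = 0.0390), and without mouse 6, library A or library C (edgeR adjusted p = 0.0111, 0.0347 and 0.0383).

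Of 4 genes of the carnitine shuttle, 3 fell at 1 day, and the 1 that did not was Cpt1a. Carnitine palmitoyltransferase 1 makes acylcarnitine at the outer mitochondrial membrane, and its muscle isoform, encoded by Cpt1b, is the main one in the adult heart, while Cpt1a encodes the liver isoform. Cpt1b (ENSMUSG00000078937, chromosome 15, 89416405 to 89425863) had 7.49, 8.22 and 8.56 CPM in sham, 2.87, 2.14 and 5.29 CPM at 1 day and 7.13, 5.60 and 4.54 CPM at 14 days. It fell at 1 day (log2 fold -1.26 with SE 0.28, adjusted p = 0.00323 by edgeR). In sham its counted level per length was below that of Cpt1a, and the part of the exons shared with Gm44502 in that low level was not tested. Cpt1a (ENSMUSG00000024900, chromosome 19, 3322334 to 3385733) had 33.7, 26.2 and 30.2 CPM in sham, 24.8, 21.9 and 29.9 CPM at 1 day and 40.6, 42.3 and 41.8 CPM at 14 days. Its 1-day libraries overlapped sham (log2 fold -0.24 with SE 0.12, adjusted p = 0.1248 by edgeR), with a fold of 0.24 when scaled by total count only and 0.38 when scaled to cardiomyocyte genes, and all 3 of its 14-day libraries were above every other library. Without mouse 6, Cpt1a was called lower at 1 day (log2 fold -0.37, adjusted p = 0.0104 by edgeR). Cpt2, which turns acylcarnitine back into acyl-CoA at the inner membrane, had 83.7, 85.8 and 91.7 CPM in sham, 29.0, 25.4 and 49.1 CPM at 1 day and 74.8, 61.1 and 53.4 CPM at 14 days (log2 fold -1.34 with SE 0.22, adjusted p = 6.95e-04 by edgeR). Slc25a20, the carnitine-acylcarnitine carrier, had 68.3 ± 4.68 CPM in sham, 30.1 ± 7.84 CPM at 1 day and 48.9 ± 7.58 CPM at 14 days (mean ± SD, n = 3 each, log2 fold -1.18 with SE 0.18, adjusted p = 3.47e-04 by edgeR).

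All 4 acyl-CoA dehydrogenases, which take the first step of each turn of the spiral and differ by the chain length they prefer, fell at 1 day. The medium-chain enzyme Acadm fell most. It had 262, 282 and 269 CPM in sham, 94.8, 79.4 and 156 CPM at 1 day and 247, 186 and 166 CPM at 14 days (log2 fold -1.30 with SE 0.23, adjusted p = 9.30e-04 by edgeR). The long-chain enzyme Acadl fell least, with 278, 294 and 301 CPM in sham, 159, 139.6 and 203 CPM at 1 day and 267, 232 and 199 CPM at 14 days (log2 fold -0.80 with SE 0.16, adjusted p = 0.00146 by edgeR). Every 1-day library of both genes was below sham, while the 14-day library A of each lay just below the sham range. The very-long-chain enzyme Acadvl fell by 0.84, SE 0.19 on the log2 scale and the short-chain enzyme Acads by 1.01, SE 0.18. The calls of Acadl and Acadvl ended when scaled by total count only or to cardiomyocyte genes.

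All 5 genes of the later steps fell at 1 day. Hadh, the 3-hydroxyacyl-CoA dehydrogenase for shorter chains, fell most, with 202, 213 and 229 CPM in sham, 69.3, 59.3 and 103 CPM at 1 day and 183, 137 and 120.1 CPM at 14 days (log2 fold -1.47 with SE 0.21, adjusted p = 2.61e-04 by edgeR). Echs1, the short-chain enoyl-CoA hydratase, fell least, with 100.4, 100.2 and 96.9 CPM in sham, 46.4, 41.8 and 64.3 CPM at 1 day and 97.7, 83.9 and 73.7 CPM at 14 days (log2 fold -0.97 with SE 0.16, adjusted p = 4.64e-04 by edgeR). In Echs1 the 14-day library A lay inside the sham range, and in Hadh it lay below all of them. Hadha and Hadhb encode the alpha and beta subunits of the trifunctional protein, which takes the last 3 steps for long chains, and are neighbours on chromosome 5. Hadha had 557 ± 5.87 CPM in sham, 257 ± 74.4 CPM at 1 day and 422 ± 85.3 CPM at 14 days (mean ± SD, n = 3 each, log2 fold -1.12 with SE 0.21, adjusted p = 0.00101 by edgeR). Hadhb had 90.6 ± 4.15 CPM in sham, 38.3 ± 11.0 CPM at 1 day and 78.5 ± 9.36 CPM at 14 days (mean ± SD, n = 3 each, log2 fold -1.25 with SE 0.17, adjusted p = 2.15e-04 by edgeR). The folds of the subunits differed by less than either SE. Acaa2, the mitochondrial thiolase that closes the turn, fell by 1.10, SE 0.20 on the log2 scale.

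Double bonds of unsaturated fatty acids need extra enzymes, and all 3 measured here fell. Eci1, an enoyl-CoA isomerase, had 77.04, 83.5 and 76.9988 CPM in sham, 31.0, 26.0 and 45.3 CPM at 1 day and 65.8, 55.2 and 49.6 CPM at 14 days (log2 fold -1.22 with SE 0.18, adjusted p = 3.46e-04 by edgeR). Eci2, an isomerase found in mitochondria and peroxisomes, had 49.7, 55.4 and 55.0 CPM in sham, 29.8, 25.7 and 40.7 CPM at 1 day and 48.8, 40.7 and 40.03 CPM at 14 days (log2 fold -0.74 with SE 0.15, adjusted p = 0.00187 by edgeR), a call that ended under the same scalings as that of Acadl. In both genes mouse 6 stood above mice 4 and 5 and below every sham mouse. Decr1, the 2,4-dienoyl-CoA reductase, had 174 ± 9.63 CPM in sham, 83.3 ± 20.2 CPM at 1 day and 135 ± 24.1 CPM at 14 days (mean ± SD, n = 3 each, log2 fold -1.06 with SE 0.17, adjusted p = 5.07e-04 by edgeR).

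The electron transfer flavoprotein, a dimer of the products of Etfa and Etfb, takes electrons from the acyl-CoA dehydrogenases, and Etfdh encodes the membrane enzyme that passes them to ubiquinone. All 3 genes fell. Etfdh had 274, 274 and 274 CPM in sham, 88.9, 73.9 and 150.2 CPM at 1 day and 249.96, 203 and 179 CPM at 14 days. The sham values of Etfdh agree to 3 digits and every 1-day library was below them (log2 fold -1.39 with SE 0.23, adjusted p = 6.27e-04 by edgeR). Etfb had 120.3, 124 and 116 CPM in sham, 53.2, 43.8 and 77.1 CPM at 1 day and 98.6, 75.2 and 61.4 CPM at 14 days (log2 fold -1.05 with SE 0.21, adjusted p = 0.00174 by edgeR). Etfa had 110.5 ± 2.87 CPM in sham, 53.0 ± 15.3 CPM at 1 day and 89.3 ± 15.1 CPM at 14 days (mean ± SD, n = 3 each, log2 fold -1.06 with SE 0.18, adjusted p = 7.32e-04 by edgeR), so the folds of the dimer's subunits differed by less than their SE.

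Acyl-CoA thioesterases split acyl-CoA back into free fatty acid and CoA, and all 3 measured here fell. Acot1 (ENSMUSG00000072949, chromosome 12, 84009490 to 84018371), a cytosolic enzyme, showed the largest fall of the 33 genes, on few reads. It had 3.39, 4.18 and 3.07 CPM in sham, 0.430, 0.238 and 1.43 CPM at 1 day and 2.701, 1.35 and 1.10 CPM at 14 days. These rest on 48 to 124 counts in sham libraries, 6 to 32 at 1 day and 27 to 78 at 14 days (log2 fold -2.45 with SE 0.51, adjusted p = 0.00260 by edgeR). Acot2 (ENSMUSG00000021226, chromosome 12, 83987861 to 83993873), its mitochondrial neighbour on chromosome 12, had 29.0, 28.8 and 30.4 CPM in sham, 13.9, 7.59 and 13.04 CPM at 1 day and 20.9, 17.0 and 16.7 CPM at 14 days (log2 fold -1.34 with SE 0.19, adjusted p = 2.68e-04 by edgeR). Acot2 was the gene in which mouse 6 was not the highest at 1 day, and its 14-day libraries were also all below sham. Acot13 had 66.3, 66.8 and 70.7 CPM in sham, 30.8, 30.7 and 46.8 CPM at 1 day and 68.2, 62.7 and 56.3 CPM at 14 days (log2 fold -0.92 with SE 0.15, adjusted p = 5.51e-04 by edgeR), with 14-day library A inside the sham range.

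The enzymes that make and remove malonyl-CoA both fell. Acacb, the acetyl-CoA carboxylase isoform at the outer mitochondrial membrane, had 255, 242 and 218 CPM in sham, 74.8, 63.6 and 139.6 CPM at 1 day and 199, 147 and 130.4 CPM at 14 days (log2 fold -1.37 with SE 0.27, adjusted p = 0.00194 by edgeR). Mlycd, malonyl-CoA decarboxylase, had 33.7, 35.0 and 32.1 CPM in sham, 11.5, 8.42 and 16.5 CPM at 1 day and 29.1, 22.7 and 19.8 CPM at 14 days (log2 fold -1.47 with SE 0.21, adjusted p = 3.90e-04 by edgeR). In both, all 1-day libraries were below sham and mouse 6 was the highest of them.

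The 4 lipid droplet genes split. Dgat2, which takes the last step of triglyceride synthesis, and Plin5, which coats droplets and tethers them to mitochondria, fell, while the lipase genes Pnpla2 and Lipe did not pass the test. Dgat2 had 111, 99.3 and 99.0 CPM in sham, 18.4, 17.3 and 51.8 CPM at 1 day and 90.2, 62.3 and 55.9 CPM at 14 days. Mice 4 and 5 stood well below mouse 6, and all 3 were below sham (log2 fold -1.83 with SE 0.40, adjusted p = 0.00412 by edgeR). Plin5 had 42.2 ± 1.84 CPM in sham, 13.9 ± 6.67 CPM at 1 day and 24.3 ± 7.23 CPM at 14 days (mean ± SD, n = 3 each, log2 fold -1.61 with SE 0.31, adjusted p = 0.00234 by edgeR). Pnpla2, adipose triglyceride lipase, which starts triglyceride breakdown, had 75.2, 77.2 and 71.0 CPM in sham, 52.5, 48.8 and 73.3 CPM at 1 day and 54.6, 47.1 and 37.7 CPM at 14 days. Mouse 6 lay inside the sham range (log2 fold -0.36 with SE 0.16, adjusted p = 0.0835 by edgeR). Lipe, hormone-sensitive lipase, had 14.9, 13.4 and 11.8 CPM in sham, 10.9, 8.26 and 14.6 CPM at 1 day and 16.4, 12.8 and 10.6 CPM at 14 days, with all 3 groups overlapping (log2 fold -0.26 with SE 0.21, adjusted p = 0.306 by edgeR). The folds of Pnpla2 and Lipe were 0.10 and 0.21 when scaled by total count only, and 0.25 and 0.35 when scaled to cardiomyocyte genes. Without mouse 6 both were called lower (-0.56 and -0.48), and Pnpla2 was also called lower without library C (-0.39, edgeR adjusted p = 0.0484).

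**Figure D3:**
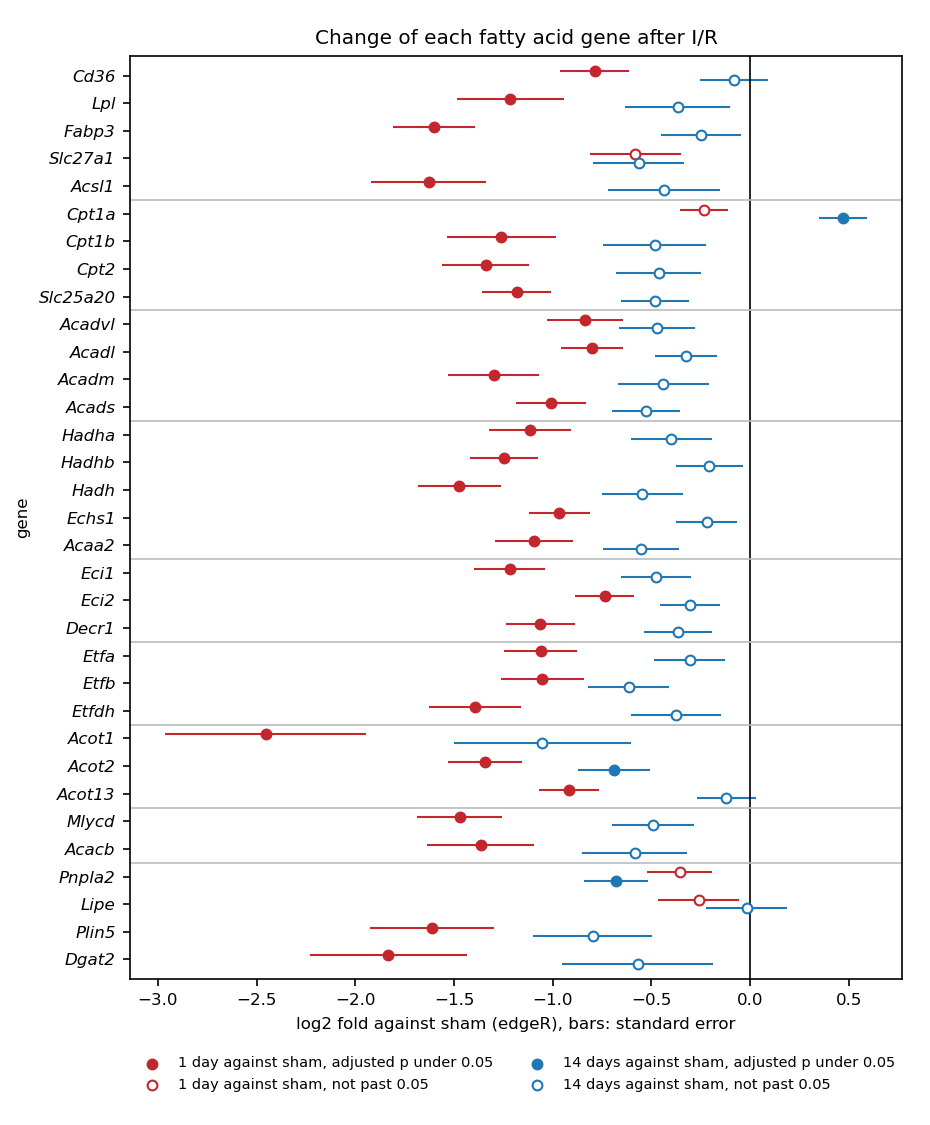
Points give the log2 fold of each gene against sham at 1 day (red) and 14 days (blue) from edgeR, with bars for the standard error and filled points for adjusted p under 0.05. At 1 day 29 points are filled, all left of 0, and at 14 days 3 are filled, of which Cpt1a lies right of 0 and Acot2 and Pnpla2 left of it.

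At 14 days after I/R, 1 of the 33 genes was higher than sham, 2 were lower and 30 did not pass the test. Over all genes tested, 8.75% rose and 5.64% fell, so the share of called members was near the background. The median log2 fold of the 33 genes was -0.46, beside 0.01 over all genes, and 32 of the 33 folds were below 0. In 27 of the 33 genes every 14-day library lay below every sham library, against 18.4% of all genes tested. Cpt1a lay above sham in every library, and Cd36, Hadhb, Echs1, Acot13 and Lipe overlapped sham. Library A was the highest 14-day library in 32 genes, all but Cpt1a.

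Cpt1a rose (log2 fold 0.47 with SE 0.12, adjusted p = 0.0261 by edgeR), with 14-day libraries at 40.6, 42.3 and 41.8 CPM and sham at 33.7, 26.2 and 30.2 CPM. Acot2 fell (log2 fold -0.69 with SE 0.18, adjusted p = 0.0304 by edgeR). Pnpla2 fell (log2 fold -0.68 with SE 0.16, adjusted p = 0.0203 by edgeR), from 71.0 to 77.2 CPM in sham to 37.7 to 54.6 CPM, and so was lower at 14 days than in sham while its 1-day libraries overlapped sham. The widest folds that did not pass were those of Acot1 (-1.05, SE 0.45), Plin5 (-0.80, SE 0.30) and Etfb (-0.62, SE 0.21). The folds nearest 0 were those of Lipe (-0.02, SE 0.20), Cd36 (-0.08, SE 0.17) and Acot13 (-0.12, SE 0.15).

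None of the 3 calls held in every alternative. The call of Cpt1a ended when scaled by total count only and without sham mouse 2, sham mouse 3, library B or library C. That of Acot2 ended when scaled by total count only or to cardiomyocyte genes, with no filter on low counts, and without any 1 of the sham mice, B or C. The call of Pnpla2 ended without any 1 of the sham mice, B or C. In the other direction, 22 members were called (1 higher, 21 lower) when the sham and 14-day libraries were fitted alone, and 23 (1 higher, 22 lower) when mouse 6 was left out of the filter, the scaling and the fit. Members called were 11 without library A, 6 without mouse 5, 1 without sham mouse 1 and 0 without sham mouse 2, sham mouse 3, B or C. Calls over all genes tested moved too, from 2033 in the reported fit. In the fit of the 2 groups alone 2853 of 13756 were called (1369 lower), and 3221 of 14649 (1469 lower) without mouse 6. They were 3012 without library A and 1862 without mouse 5. Without sham mouse 1, sham mouse 2, sham mouse 3, B and C they were 912, 478, 1025, 722 and 775. The median log2 fold of the 33 genes lay between -0.60 and -0.36 with each library left out, and was -0.37 with total count only and -0.23 with scaling to cardiomyocyte genes.

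The 14-day libraries differed along with other cell types. Their medians over the 33 genes were -0.17 in A, -0.51 in B and -0.68 in C. The cardiomyocyte structural genes lay at -0.05, -0.26 and -0.30 in the same libraries, the 9 fibroblast genes at 1.34, 1.76 and 2.40 and the 10 macrophage genes at 0.25, 0.93 and 1.32. The summed fibroblast level was 568 to 1018 CPM in sham and 2069 to 5112 CPM at 14 days. Of its 9 genes 8 rose, beside 8.75% of all genes tested. The part of these cells in the lower levels of fatty acid genes was not tested.

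Between both times after I/R, most members were higher at 14 days. Against 1 day, 27 of the 33 genes were higher at 14 days, none was lower and 6 did not pass (Slc27a1, Acadvl, Etfb, Pnpla2, Lipe and Plin5), while 25.1% of all genes tested were higher and 26.8% lower. The median log2 fold was 0.74, beside 0.00 over all genes. The largest differences were those of Acot1 (log2 fold 1.40 with SE 0.53, adjusted p = 0.0477 by edgeR), Fabp3 (log2 fold 1.35 with SE 0.21, adjusted p = 4.06e-04 by edgeR), Dgat2 (log2 fold 1.26 with SE 0.39, adjusted p = 0.0237 by edgeR) and Acsl1 (log2 fold 1.19 with SE 0.29, adjusted p = 0.00586 by edgeR). Cpt1a was 0.71 higher (SE 0.12, edgeR adjusted p = 7.33e-04), close to the median of the list, although its levels against sham ran otherwise. Pnpla2 was the 1 member with a negative fold (log2 fold -0.32 with SE 0.16, adjusted p = 0.119 by edgeR). This comparison shares its libraries with the comparisons against sham. Members called were 10 when scaled by total count only (9 higher and Pnpla2 lower, with a fold of -0.70), and 17 without mouse 4 or without mouse 5. They were 19 with scaling to cardiomyocyte genes and 19 without library A, in each case 18 higher and Pnpla2 lower (folds -0.69 and -0.45). Over all genes, total count only called 1066 higher and 5469 lower, and cardiomyocyte scaling 1188 and 5347. Calls over all genes, 7335 in the reported fit, also moved with libraries left out. They were 5604 of 14226 without mouse 4 and 6068 of 14510 without mouse 5. Without library A they were 6716 of 14437, and without mouse 6 they were 8360 of 14649. Without mouse 6, 30 members were called, all higher, with Acadvl, Etfb and Plin5 also called (folds 0.56, 0.70 and 1.24).

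The order of levels over the groups was the same in most members. Sham was highest, 14 days next and 1 day lowest in the group means of 31 genes, as for Hadhb (90.6 ± 4.15 CPM in sham, 38.3 ± 11.0 CPM at 1 day and 78.5 ± 9.36 CPM at 14 days) and Fabp3 (151 ± 8.44 CPM in sham, 49.9 ± 18.2 CPM at 1 day and 127 ± 10.01 CPM at 14 days). Cpt1a ran 14 days, sham, 1 day, and Pnpla2 ran sham, 1 day, 14 days. In Slc27a1 the means at 1 day and 14 days were 25.8 ± 8.17 and 26.1 ± 6.89 CPM (SD, n = 3) and did not differ beyond their spread.

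Ratios within a library need no scaling factor, and 4 pairs were compared, in log2 of counts per kb with 0.5 added to each count. For 3 against 3 libraries the two-sided exact permutation test gives no p below 0.1, and p-values were adjusted over 12 tests. Cpt1a to Cpt1b, the liver to the muscle isoform, was 0.99, 0.49 and 0.64 in sham, 1.92, 2.16 and 1.32 at 1 day and 1.33, 1.73 and 2.02 at 14 days. Every library after I/R was above every sham library at both times (differences 1.10 and 0.99, exact permutation p = 0.1 each, adjusted 0.3). Of the 2 genes, Cpt1b was called lower at 1 day and Cpt1a higher at 14 days. Because of the shared exons of Cpt1b, the size of this ratio is uncertain.

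Dgat2 to Pnpla2, the last step of triglyceride synthesis against the first lipase, was 0.53, 0.33 and 0.45 in sham, -1.54, -1.53 and -0.53 at 1 day and 0.69, 0.37 and 0.54 at 14 days. All 1-day libraries were below all others (1 day minus sham -1.64, exact permutation p = 0.1, adjusted 0.3), and at 14 days the ratio overlapped sham (difference 0.10, exact permutation p = 0.4, adjusted 0.48). Acacb to Mlycd was 1.13 ± 0.0845 among sham mice, 1.20 ± 0.191 at 1 day and 1.03 ± 0.0407 by 14 days (mean ± SD, n = 3), and all groups overlapped (exact permutation p = 0.7 at 1 day and 0.2 at 14 days against sham, adjusted 0.764 and 0.4). Acot1 to Acot2 was -3.89 ± 0.260 among sham mice, -5.18 ± 1.02 at 1 day and -4.33 ± 0.494 by 14 days (mean ± SD, n = 3), with overlap (exact permutation p = 0.2 and 0.3, adjusted 0.4 and 0.45). Mouse 6, at -4.00, was the 1 library at 1 day within the sham range, and without it the difference from sham was -1.88 (exact permutation p = 0.2, the smallest that 2 against 3 libraries can give). These 2 genes share sequence, so reads may be split between them.

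**Figure D4:**
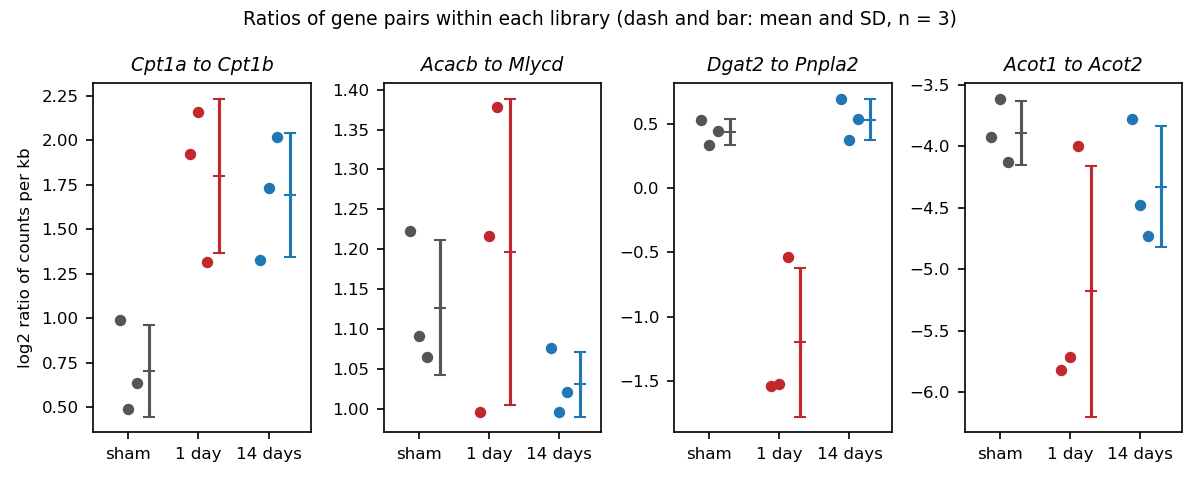
Points give the log2 ratio of counts per kb of 4 gene pairs in each library, and dashes with bars the mean and SD (n = 3). Cpt1a to Cpt1b is higher in all 6 libraries after I/R than in sham, and Dgat2 to Pnpla2 is below 0 in the 3 libraries at 1 day and above 0 in the other 6.

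Genes of fatty acid metabolism outside the 33 were read from the same fit. For comparison, 24.8% of all genes tested fell and 29.4% rose at 1 day, and 5.64% fell and 8.75% rose at 14 days. Between the times 25.1% were higher at 14 days and 26.8% lower. With total count only 1057 of 14124 genes fell and 6860 rose at 1 day, and with scaling to cardiomyocyte genes 874 and 8444. Of 26 other genes of mitochondrial oxidation, 25 fell and 1 rose at 1 day (median -0.78). Ech1, a dienoyl-CoA isomerase (-1.17, SE 0.21, edgeR adjusted p = 9.40e-04), and Acat1, the acetoacetyl-CoA thiolase (-1.01, SE 0.19, edgeR adjusted p = 9.25e-04), were the most abundant that fell. The 1 that rose was the mitochondrial thioesterase gene Acot9 (1.31, SE 0.15, edgeR adjusted p = 7.07e-05), against the falls of Acot1, Acot2 and Acot13. At 14 days against sham edgeR called none of the 26 (median -0.27), with 8 at an unadjusted p under 0.05, while DESeq2 called 2 lower and limma-voom 1 lower. With total count only 12 of the 26 fell at 1 day, and with scaling to cardiomyocyte genes 11.

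Of 16 peroxisomal genes tested 14 fell at 1 day and none rose (median -0.60, or 0.03 with scaling to cardiomyocyte genes). Phyh, which starts alpha-oxidation, was among those that fell (-0.997, SE 0.17, edgeR adjusted p = 6.68e-04). At 14 days edgeR, DESeq2 and limma-voom called none of the 16 against sham, with 5 at an unadjusted p under 0.05 in edgeR, and 11 of the 16 were higher than at 1 day.

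Of 20 other lipid droplet and triglyceride genes tested 13 fell and 3 rose at 1 day (median -0.65), counts that became 4 and 5 with total count only and 4 and 7 with scaling to cardiomyocyte genes. Lpin1, a phosphatidate phosphatase (-1.51, SE 0.31, edgeR adjusted p = 0.00257), and Gpam, the mitochondrial glycerol-3-phosphate acyltransferase (-1.20, SE 0.21, edgeR adjusted p = 8.31e-04), fell. Plin2, the widely expressed droplet coat protein, rose (0.70, SE 0.13, edgeR adjusted p = 0.00111), opposite to Plin5. At 14 days 4 of the 20 were lower than sham, namely G0s2, which encodes an inhibitor of adipose triglyceride lipase (-1.20, SE 0.17, edgeR adjusted p = 0.00336), the droplet gene Fitm1 (-0.83, SE 0.21, edgeR adjusted p = 0.0281), and the acyltransferase genes Agpat1 (-0.46, SE 0.10, edgeR adjusted p = 0.0129) and Agpat3 (-0.56, SE 0.15, edgeR adjusted p = 0.0325). The calls of Agpat1 and Agpat3 ended under both scalings.

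Of 16 other genes of uptake, binding and activation tested, 8 fell and 6 rose at 1 day (median -0.28, or 0.20 with total count only and 0.35 with scaling to cardiomyocyte genes). Vldlr, a lipoprotein receptor, fell (-1.50, SE 0.21, edgeR adjusted p = 2.06e-04). Fabp4, a binding protein of endothelium and adipocytes, was also called lower (-0.46, SE 0.13, edgeR adjusted p = 0.00852), with folds of 0.01 and 0.16 under those scalings. Acsl4, an acyl-CoA synthetase that prefers arachidonate, rose (0.76, SE 0.12, edgeR adjusted p = 4.80e-04), opposite to Acsl1. At 14 days 1 of the 16 was called, Dbi, which encodes acyl-CoA binding protein (-0.36, SE 0.11, edgeR adjusted p = 0.0426), a call that ended under both scalings.

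Of 19 known regulators tested 14 fell and 1 rose at 1 day (median -0.59, or -0.13 and 0.02 under the same scalings). Ppargc1a, a coactivator of the nuclear receptors named above (-1.31, SE 0.21, edgeR adjusted p = 5.97e-04), and Prkaa2, a catalytic subunit of AMP-activated protein kinase (-0.62, SE 0.14, edgeR adjusted p = 0.00276), fell, and Prkaa1, the other catalytic subunit, rose (0.29, SE 0.09, edgeR adjusted p = 0.0174). The call of Prkaa2 ended under both scalings. At 14 days Esrra, which encodes ERR alpha (-0.81, SE 0.17, edgeR adjusted p = 0.0113), and Ppard, which encodes PPAR delta (-0.71, SE 0.12, edgeR adjusted p = 0.00585), were lower than sham, and the call of Ppard ended under both scalings.

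**Figure D5:**
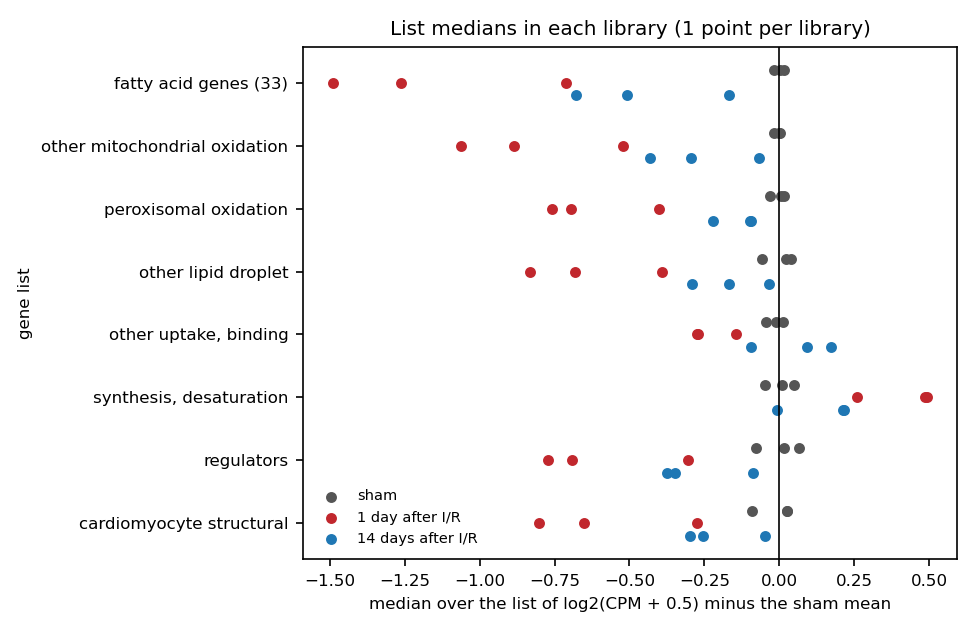
Points give, for each library, the median over a gene list of log2(CPM + 0.5) minus the sham mean. The 33 fatty acid genes lie at -1.49 to -0.71 at 1 day and the cardiomyocyte structural genes at -0.80 to -0.28, and in both lists mouse 6 is the rightmost 1-day point.

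Levels relative to cardiomyocyte structural transcripts were compared by scaling every library to the summed counts of its 20 cardiomyocyte structural genes. In such a sum the most abundant genes weigh most. Of those 20 genes 12 fell and 3 rose at 1 day in the reported fit (median -0.52, range -1.41 to 4.14), where 24.8% of all genes fell and 29.4% rose. After scaling to the 20 genes, 25 of the 33 fatty acid genes were still lower than sham at 1 day, with a median of -0.58. All genes tested then had a median of 0.69, with 874 of 14124 lower and 8444 higher. The 4 genes whose calls ended were Cd36, Acadvl, Acadl and Eci2.

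Other cell types that express fatty acid genes were looked for. Of 8 adipocyte genes 7 were under the filter on low counts (Adipoq, Cfd, Plin1, Lep, Retn, Cidec and Pck1), Lep was at 0 in all libraries, and Fabp4 was the 1 that could be tested. Ucp1, the defining gene of brown adipocytes, was at 0 in all libraries. The other 3 genes of that list were tested: Cidea and Ppargc1a fell at 1 day (log2 fold -0.63 and -1.31), Dio2 was higher at 14 days than in sham (3.49), and all 3 were higher at 14 days than at 1 day (median 1.09). Of 8 fast skeletal muscle genes 7 were under the filter, and the list's sum was 0.554 to 3.39 CPM over all libraries. The remaining gene, Tnnt3, rose at 1 day (log2 fold 3.62) and was lower at 14 days than at 1 day (-2.50), at 0.0337 to 1.59 CPM over all libraries. All 7 neutrophil genes tested rose at 1 day, with sums over the list of 1.76 to 5.43 CPM in sham and 51.2 to 145 CPM at 1 day. Of 10 macrophage genes 5 rose (156 to 176 CPM in sham, 259 to 304 CPM at 1 day), of 9 fibroblast genes 2 rose and 3 fell, of 9 endothelial genes 5 fell (503 to 539 CPM in sham, 378 to 408 CPM at 1 day), and of 5 red blood cell genes 5 fell. At 1 day 29.4% of all genes tested rose and 24.8% fell, and the shares of fibroblast genes lay near these. The part of these cell types in the fall of fatty acid genes at 1 day was not tested.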

How the data were processed

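Total RNA of left ventricle from 9 mice was isolated with TRIzol, depleted of ribosomal RNA and turned into stranded libraries, per the labels' protocols. The submitters' processing notes name STAR 2.7.1a and mouse build GRCm38 (mm10). Not given in the sources used here are the counting program, the annotation release, the strand setting and what was done with reads of several matches. The authors deposited raw counts per gene, as whole numbers, in 1 table of 9 libraries, with no column left unused. Names, positions and exon lengths came from GENCODE M21 (36429 of 38293 genes matched), and promoter windows from RefSeq GRCm38.p6.

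Counts were tested in edgeR 4.0.16 (R 4.3.3) with TMM scaling, its filter on low counts, robust quasi-likelihood dispersion and 3 groups in 1 fit of all 9 libraries, so that the groups share 1 estimate of spread. Benjamini-Hochberg adjustment ran over all 14124 genes tested, with a threshold of 0.05, and SE is the log2 fold divided by the square root of F. CPM uses the TMM-scaled library, whose factors ran from 0.7745 to 1.464. The procedure was tested on simulated data. No pair of replicates agreed within sampling noise (chi-square over its degrees of freedom from 6.90 to 89.7), and each library counted as 1 replicate. The edgeR p-values weigh a difference between groups against the shared estimate of spread between mice within groups. Mitochondrially encoded and ribosomal RNA genes took 52.0% to 71.8% of counts, which limits the depth left for other genes. No batch is named in the labels.

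The 33 genes and all lists were chosen with earlier results of these data known, and no list was tested as a set. Values in every library are given for the members with the lowest and the highest fold in each of 9 role groups, both genes of 4 ratio pairs, members not called at 1 day and members called at 14 days. From 6 lists of other fatty acid genes, the text names the 2 most abundant called genes of the commoner direction and 1 of the rarer, and at 14 days the called genes where 5 or fewer. A gene that this rule took is not reported here. Alternatives were other scalings (DESeq2 size factors, total count only, upper quartile, TMM without mitochondrially encoded and ribosomal RNA genes, cardiomyocyte structural genes), DESeq2 1.42.0, limma-voom (limma 3.58.1), no filter, 1 CPM or more in 3 libraries as the filter, fits of only the 2 groups compared, a prior count of 2 for ratios, and each library left out in turn. Figures were drawn with matplotlib 3.10.9.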

Additional observations from a re-analysis of the deposited data

Results flagged for a closer look

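In 27 of the 33 genes the fold against sham at 1 day differed from the fold against sham at 14 days, by edgeR's test of the 14-day against the 1-day libraries (adjusted p under 0.05), in which the sham libraries cancel. This is the comparison between the times given above, in which 25.1% of all genes tested were higher at 14 days and 26.8% lower. The differences, as log2 folds of 14 days minus 1 day, were as follows. In uptake and activation they were 0.71 for Cd36, 0.85 for Lpl, 1.35 for Fabp3 and 1.19 for Acsl1. In the carnitine shuttle they were 0.71 for Cpt1a, 0.78 for Cpt1b, 0.88 for Cpt2 and 0.70 for Slc25a20. In the first spiral step they were 0.48 for Acadl, 0.86 for Acadm and 0.48 for Acads. In the later steps they were 0.72 for Hadha, 1.04 for Hadhb, 0.93 for Hadh, 0.74 for Echs1 and 0.54 for Acaa2. For unsaturated fatty acids they were 0.74 for Eci1, 0.43 for Eci2 and 0.70 for Decr1. In electron transfer they were 0.76 for Etfa and 1.02 for Etfdh. Among thioesterases they were 1.40 for Acot1, 0.65 for Acot2 and 0.79 for Acot13. For the enzymes of malonyl-CoA they were 0.98 for Mlycd and 0.78 for Acacb, and for triglyceride synthesis 1.26 for Dgat2. All 27 were above 0, so that the fitted level of each gene was higher at 14 days than at 1 day. In Lpl, Cpt1b, Acadl, Acads, Acaa2, Eci2, Acot1 and Acacb the libraries of the 2 times overlapped. For Cpt1a the 14-day level was also above sham.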

How the results depend on the processing

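No paired analysis was possible because the groups are made up of different mice. With total count only the median over all genes shifted by 0.48 at 1 day against sham, 0.09 at 14 days against sham and -0.39 between the times, and scaling to cardiomyocyte structural genes by 0.64, 0.26 and -0.39. The median of the 33 genes was -0.70 and -0.58 at 1 day and 0.37 and 0.39 between the times under these scalings. Relative to the median of all genes it was -1.23 in the reported fit, -1.23 and -1.27 at 1 day. Genes higher and lower, 4153 and 3496 at 1 day as reported, were 6860 and 1057 with total count only and 8444 and 874 with cardiomyocyte scaling. At 14 days 1236 and 797 became 720 and 112 (832 in all) and 1075 and 68 (1143 in all), and between the times 3547 and 3788 became 1066 and 5469, and 1188 and 5347. Members called at 14 days against sham, 3 as reported, were 1 with total count only, 7 with DESeq2 and 22 in the fit of the 2 groups alone. Between the times they were 10 with total count only against 27. Over all genes tested, DESeq2 called 2225 at 14 days against sham, and the fit of those 2 groups alone called 2853.

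With each library left out in turn, genes called at 14 days against sham ranged from 478 to 3221 and members called then from 0 to 23. Between the times, genes called ranged from 5604 to 8360 and members called from 17 to 30. The difference between the times in Cpt1a to Cpt1b ranged from -0.348 to 0.0766, and that at 1 day in Acacb to Mlycd from -0.0203 to 0.170.

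Signs changed in folds that were not called in the reported fit. With total count only the folds were, at 1 day, 0.24 for Cpt1a, 0.10 for Pnpla2 and 0.21 for Lipe; at 14 days, 0.0109 for Cd36 and 0.0533 for Lipe; between the times, -0.38 for Slc27a1, -0.0248 for Acadvl and -0.15 for Lipe. With cardiomyocyte scaling they were, at 1 day, 0.0115 for Slc27a1, 0.38 for Cpt1a, 0.25 for Pnpla2 and 0.35 for Lipe; at 14 days, 0.16 for Cd36, 0.00197 for Fabp3, 0.0372 for Hadhb, 0.0217 for Echs1, 0.12 for Acot13 and 0.22 for Lipe; between the times, -0.34 for Slc27a1 and -0.12 for Lipe. Leaving out 1 library in turn gave folds from -0.20 to 0.10 for Lipe at 14 days and from -0.20 to 0.27 for Slc27a1 between the times. Of members called as reported, 25 of 29 at 1 day, 0 of 3 at 14 days and 8 of 27 between the times kept direction and call in every alternative run. Depth limits Acot1 most, with 6 counts in mouse 5.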

Other observations

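Among genes of fatty acid synthesis and desaturation more rose than fell at 1 day. Of 15 such genes tested, 8 rose and 2 fell at 1 day against sham (median 0.42, beside 0.04 over all genes). Of all genes tested 29.4% rose and 24.8% fell. With total count only 11 of the 15 rose and 1 fell. That scaling also called 6860 of all 14124 genes higher and 1057 lower, with a median of 0.53. Fads3, of the fatty acid desaturase family (1.42, SE 0.13, edgeR adjusted p = 2.21e-05), and Acly, the cytosolic enzyme that makes acetyl-CoA from citrate (0.47, SE 0.11, edgeR adjusted p = 0.00346), were the most abundant that rose. Me1, the cytosolic malic enzyme, fell (-0.58, SE 0.09, edgeR adjusted p = 2.79e-04), with a fold of 0.05 after scaling to cardiomyocyte genes. At 14 days Scd1, the stearoyl-CoA desaturase (0.92, SE 0.17, edgeR adjusted p = 0.00706), and the elongase gene Elovl1 (0.54, SE 0.16, edgeR adjusted p = 0.0401) were higher than sham and Me1 was lower (-0.29, SE 0.09, edgeR adjusted p = 0.0418), and the calls of Elovl1 and Me1 ended under both scalings. In mice 4, 5 and 6 the list's medians were 0.49, 0.49 and 0.26, and in libraries A, B and C -0.01, 0.22 and 0.21.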
